A study of Homo sapiens with 23 samples.

Results

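Bivalent regions are stretches of chromatin where an H3K4me3 peak, the mark of promoters, and an H3K27me3 peak, the mark of Polycomb repression, occur at the same place. They were sought in NCI-H23, a cell line established from a non-small cell lung tumour. An H3K4me3 region was an interval covered by H3K4me3 peaks of both replicate libraries, and H3K27me3 intervals were formed in the same way. A region counted as bivalent when it shared at least 1 bp with an H3K27me3 interval. By this rule 1661 of 21277 H3K4me3 regions were bivalent, or 7.81% (95% Wilson interval 7.45% to 8.17%). The share depends on the lists: it was 12.8% without replicate 1 of both marks, 2.84% when H3K27me3 had to cover at least 50% of a region, and 2.51% with peaks of a −log10 q of at least 5. The other 19616 H3K4me3 regions served for comparison.

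H3K4me3 is deposited by SET1 and MLL complexes and H3K27me3 by EZH2 within Polycomb repressive complex 2. In embryonic stem cells the pair of marks is known at promoters of silent developmental regulators, many of which keep H3K27me3 or gain DNA methylation in tumours. H3K27 carries either methyl or acetyl groups on a given histone tail, never both, so H3K27ac and H3K27me3 exclude each other on one tail. BRD2 is a BET protein whose bromodomains bind acetylated lysines, above all on histone H4.

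The series held chromatin immunoprecipitation sequencing of 22 libraries, 2 for each of 11 targets, and 1 input library for which no list was used here. All libraries came from the NCI-H23 line, and the targets were 10 histone marks and BRD2. The treatment protocol names JQ1, a BET inhibitor, and DMSO, but no sample label says which a library received, so every group is described by its target alone. Nothing in the labels says whether replicates were separate cultures, so the spread between them may be technical. H3K4me3 was precipitated with a mouse monoclonal antibody and H3K27me3 with a rabbit polyclonal antibody. The 2 marks were measured in separate libraries of whole cultures, so the same nucleosomes carrying both and different cells or alleles carrying 1 each cannot be told apart. Sequences and gene names were not analysed here.

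The H3K4me3 lists were short and alike, and the H3K27me3 lists long and less alike. H3K4me3 had 21580 and 22025 peaks in replicates 1 and 2, and the bases called in both made up 0.919 of the bases called in either. H3K27me3 had 213028 and 277462 peaks, and this ratio was 0.366. The 170663 H3K27me3 intervals had a median width of 325 bp and covered 74.2 Mb. An H3K27me3 peak met 1936 of the H3K4me3 regions in replicate 1 and 2732 in replicate 2. A further 86 regions held peaks of both replicates with no base in common, and 1174 held a peak of 1 replicate only. Read depth is unknown for all libraries. The BRD2 lists and the H4K8ac lists differed in strength between replicates: 64.7% of the BRD2 peaks of replicate 1 and 28.1% of those of replicate 2 had a q above 0.05, against 5.44% and 23.4% for H4K8ac.

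H3K27me3 covered only a part of most bivalent regions. The shared length ran from 1 to 3100 bp, and 34.9% of all bases in bivalent regions lay under H3K27me3. It covered 127 regions wholly (7.65%) and at least 90% of the bases in 189 (11.4%). At least 50% was covered in 573 (34.5%), and under 10% in 216 (13.0%). H3K27me3 reached only 1 edge of the H3K4me3 region in 756 cases (45.5%), both edges but not the whole in 166 (9.99%), and neither edge in 612 (36.8%). A single H3K27me3 interval met 1098 regions (66.1%). The H3K4me3 summit itself lay under H3K27me3 in 775 of 1651 regions in replicate 1 (46.9%) and in 761 of 1643 in replicate 2 (46.3%).

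Bivalent regions were narrower than the others and carried weaker H3K4me3. The median width was 1361 bp against 1779 bp, a ratio of 0.765. The authors' fold enrichment of the strongest H3K4me3 peak had a median of 42.2 in replicate 1 and 42.8 in replicate 2, against 66.7 and 74.3 in the other regions. Among quartiles of H3K4me3 strength over all regions, the share that was bivalent was 9.17% in the weakest, 15.5% in the second, 5.58% in the third and 0.921% in the strongest. By width it was 7.50%, 13.9%, 6.11% and 3.71% from the narrowest to the widest quartile. The highest share was thus in the second quartile by both measures. These values come from the lists that chose the regions and were not tested.

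Width and strength also followed how much of a region H3K27me3 covered. The median width was 1808 bp in regions covered under 10%, 1483 bp at 10% to under 50%, 1220 bp at 50% to under 90% and 741 bp at 90% or more. In the same order the median H3K4me3 fold enrichment of the 2 libraries was 58.5 and 61.2, then 49.4 and 52.0, then 34.4 and 33.4, and last 11.3 and 11.2. The median H3K27me3 fold enrichment went the other way, from 3.40 to 5.42 in replicate 1 and from 3.90 to 5.64 in replicate 2. The cover is part of the rule's own measure, and no test was made of this order.

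**Figure D1:**
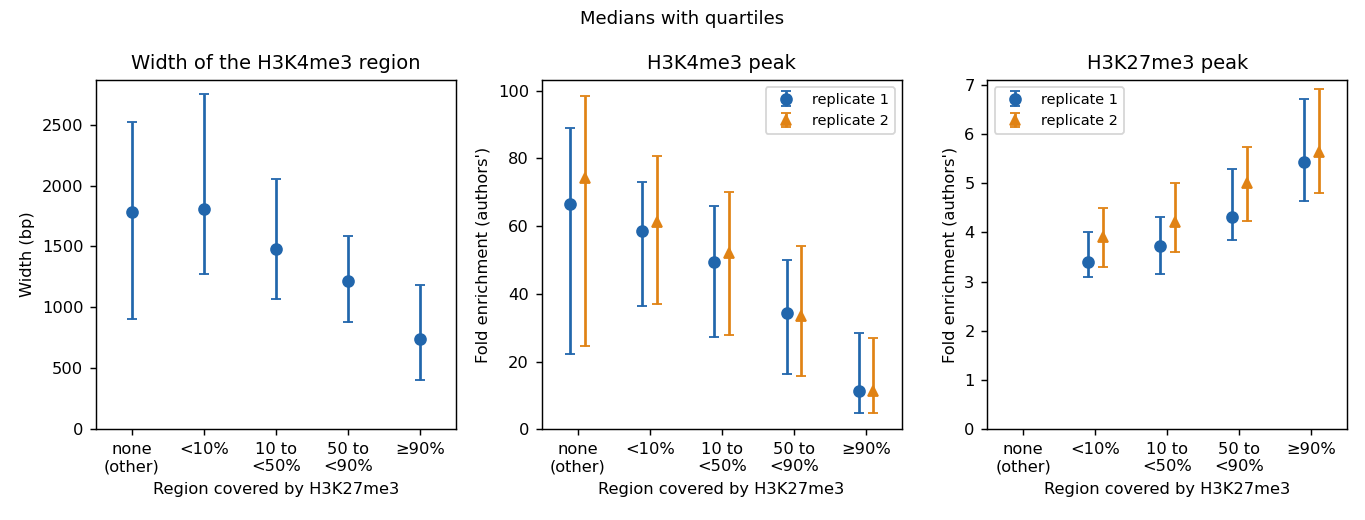
Median width in bp (left), and median fold enrichment given by the authors for the strongest H3K4me3 (middle) and H3K27me3 (right) peak, in the other H3K4me3 regions and in bivalent regions by the share of the region covered by H3K27me3. Points are medians and bars run from the first to the third quartile; from the least to the most covered regions, the median width is 1808 and 741 bp and that of H3K27me3 in replicate 1 is 3.40 and 5.42.

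Peaks of all 5 acetylation marks were less frequent at bivalent than at other H3K4me3 regions, with the largest difference among them for H3K27ac. H3K27ac marks active promoters and enhancers. It was called at 436 bivalent regions in replicate 1 (26.2%) against 82.7% of the others, with 78.3% of all H3K4me3 regions called. In replicate 2 it was called at 578 (34.8%) against 86.8%, with 82.8% of all regions called. The difference was -54.3 ± 3.16 percentage points (SD between libraries, n = 2), and the shares of the bivalent and other regions lay far apart in both libraries.

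The H4 marks are laid down by several acetyltransferases and read by bromodomains. H4K5acK8ac, the tail acetylated at both lysines, was found at 46.5% against 87.1% in replicate 1 (83.9% of all regions) and at 62.6% against 90.2% in replicate 2 (88.0% of all regions). H4K5ac was found at 55.4% against 86.8% (84.3% of all) and at 54.7% against 86.2% (83.7% of all). H4K8ac was found at 52.9% against 78.4% in replicate 1 (76.4% of all), and at 27.3% against 57.8% in the weaker replicate 2 (55.4% of all). H4K12ac came closest when any overlap with any deposited peak counted, at 68.9% against 82.5% (81.5% of all) and 66.8% against 82.1% (80.9% of all). This rank depended on the setting. With a −log10 q of at least 5 in all lists, its mean difference was -34.7 points, against -27.7 for H4K8ac. When the target had to cover at least 50% of the region, it was -19.1 against -13.6.

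The mean differences of the H4 marks were -34.1 ± 9.18 points for H4K5acK8ac, -31.4 ± 0.0855 for H4K5ac, -28.0 ± 3.49 for H4K8ac and -14.4 ± 1.18 for H4K12ac (SD, n = 2 each). Over the 5 acetylation marks the mean was -32.4 ± 14.3 points (SD between marks), and all 5 were lower at bivalent regions. An exact two-sided sign-flip permutation test with the 5 marks as units gave p = 0.0625, the smallest p that 5 marks allow, so this design cannot pass 0.05. The marks were scored on the same regions of 1 cell line, and H4K5acK8ac, H4K5ac and H4K8ac concern the same lysines. They are therefore not independent units, and the p only restates that all 5 had the same sign. The single targets had 2 libraries each, which allow no exact two-sided p under 0.5, and their values carry no test. Each acetylation mark was also lower within every quartile of width and of H3K4me3 strength in both libraries (8 of 8 values per mark for each measure). The same held on each of the 23 chromosomes compared. With other regions weighted to the bivalent regions' width and H3K4me3 strength, the mean over the marks was -29.5 points. Single marks moved further: H4K12ac to -8.23 with strength weighting and -23.5 in the 200 bp on each side of the midpoint, H4K8ac to -13.6 when it had to cover at least 50% of the region, H4K5ac to -47.7 with strict peaks (−log10 q of at least 5) in all lists, and H4K5acK8ac to -22.1 without replicate 1.

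**Figure D2:**
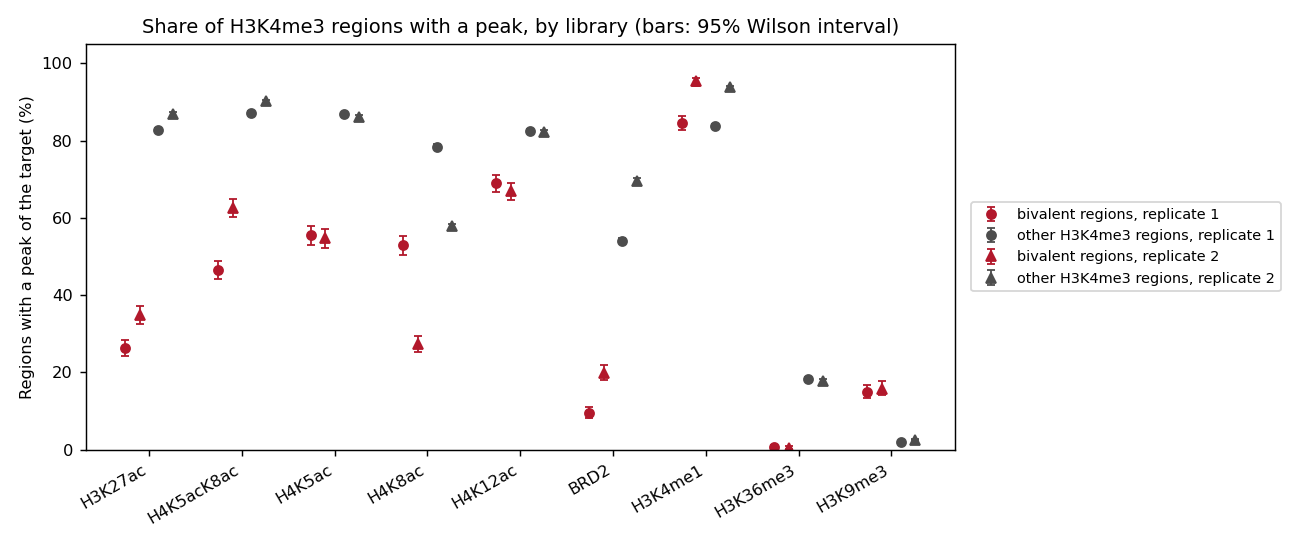
Share of regions (%) with a peak of each target, in the 1661 bivalent regions (red) and the 19616 other H3K4me3 regions (grey), for each replicate library; bars are 95% Wilson intervals, which cover counting error only. H3K27ac in replicate 1 lies at 26.2% against 82.7%, while H3K4me1 lies at 84.6% against 83.9% and H3K9me3 at 15.0% against 2.12%.

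Peaks that were called at bivalent regions were weaker too. Where H3K27ac was called, its median fold enrichment was 4.70 at bivalent and 29.0 at other regions in replicate 1, a ratio of 0.162. The ratio in replicate 2 was 0.159, from medians of 4.32 and 27.3. The ratio was 0.362 and 0.390 for H4K5acK8ac and 0.653 and 0.667 for H4K12ac. H3K9me3 peaks had about the same strength in both kinds of region, with ratios of 0.973 and 1.07.

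Much of the remaining H4K12ac at bivalent regions came from weak peaks. With only target peaks of a −log10 q of at least 5, H4K12ac was found at 25.9% of bivalent regions against 63.0% of others in replicate 1 (60.1% of all). In replicate 2 it was found at 19.7% against 58.8% (55.7% of all). The differences were -37.1 and -39.0 points, against -13.6 and -15.3 points with all peaks. For H3K27ac the strict shares were 17.6% against 78.2% (73.5% of all) and 24.2% against 83.5% (78.9% of all).

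H3K27ac shares were lower in each class of higher H3K27me3 cover, and H4K12ac shares varied less. H3K27ac in replicate 1 was found at 42.6% of bivalent regions covered under 10%, 30.8% at 10% to under 50%, 14.6% at 50% to under 90% and 10.1% at 90% or more. In replicate 2 the shares were 52.8%, 41.1%, 21.9% and 11.6%. H4K12ac was at 69.4%, 68.7%, 72.1% and 63.0% in replicate 1, and at 70.8%, 67.8%, 66.1% and 59.3% in replicate 2. H4K5acK8ac lay between them, with 58.8%, 51.1%, 40.4% and 23.8% in replicate 1 and 74.5%, 65.9%, 59.9% and 39.2% in replicate 2. Width and H3K4me3 strength moved along the same classes, as given above, and their part in these orders was not tested.

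**Figure D3:**
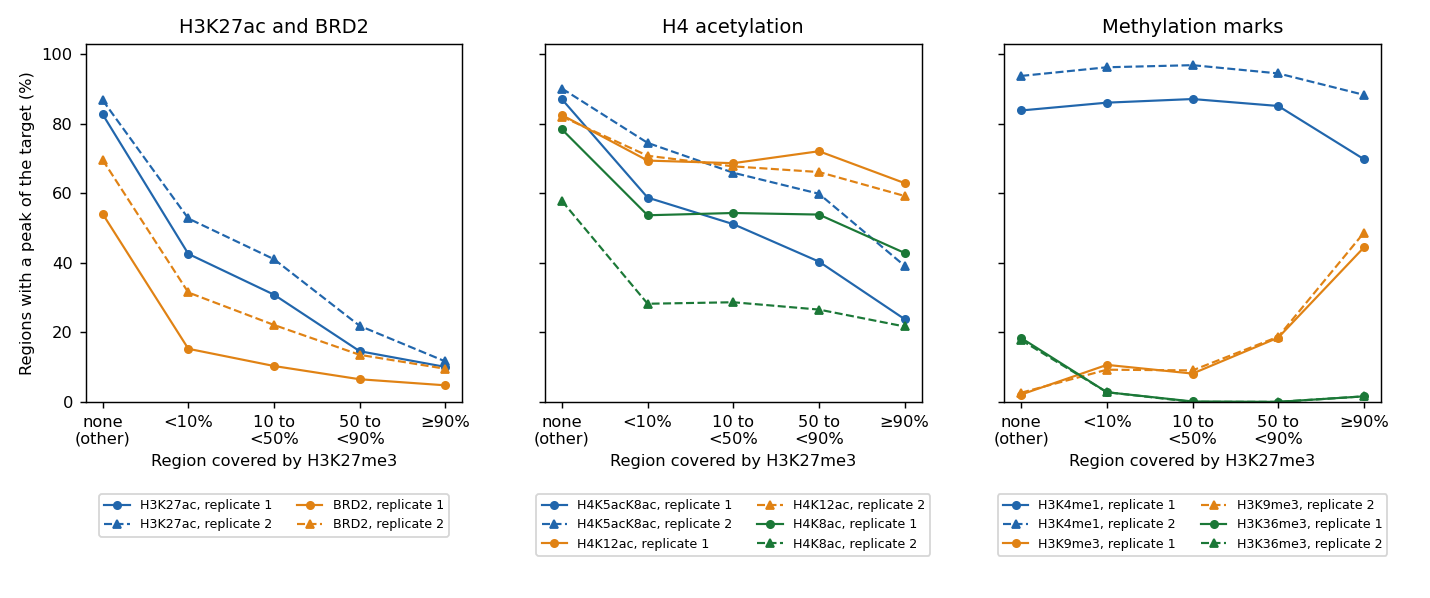
Share of regions (%) with a peak of each target in the other H3K4me3 regions and in bivalent regions grouped by the share of the region covered by H3K27me3; each line is 1 replicate library. From the least to the most covered bivalent regions, H3K27ac in replicate 1 goes from 42.6% to 10.1%, H4K12ac from 69.4% to 63.0% and H3K9me3 from 10.6% to 44.4%.

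A set of bivalent regions carried H4 acetylation without H3K27ac. H4K12ac was called in both lists and H3K27ac in neither at 414 bivalent regions (24.9%), against 448 others (2.28%), with 4.05% of all regions of this kind. This share was 12.5%, 20.3%, 35.2% and 39.7% in the classes of rising H3K27me3 cover. H4K5acK8ac in both lists with H3K27ac in neither was found at 207 bivalent regions (12.5%) against 2.77% of others, with 3.53% of all. H3K27ac was in neither list at 1020 bivalent regions and 2342 others, so these shares partly restate its absence. Of those regions, H4K12ac was in both lists at 414 bivalent and 448 others, and H4K5acK8ac at 207 and 544. Among regions without H3K27ac, the H4K12ac share was thus higher at bivalent regions, and that of H4K5acK8ac slightly lower. The reverse pattern, H3K27ac in both lists with H4K12ac in neither, was found at 7 bivalent regions (0.421%) against 805 others (4.10%), with 3.82% of all.

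Counted over the 10 acetylation lists, bivalent regions spread over the whole range and other regions stood at its upper end. The median number of lists with a peak was 5 at bivalent and 10 at other regions. All 10 lists had a peak at 208 bivalent regions (12.5%) against 52.9% of others, with 49.8% of all. No list had a peak at 252 bivalent regions (15.2%) against 5.29%, with 6.06% of all. H3K4me1 was called in both lists at 151 of those 252 (9.09% of bivalent regions), against 1.34% of others and 1.95% of all.

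**Figure D4:**
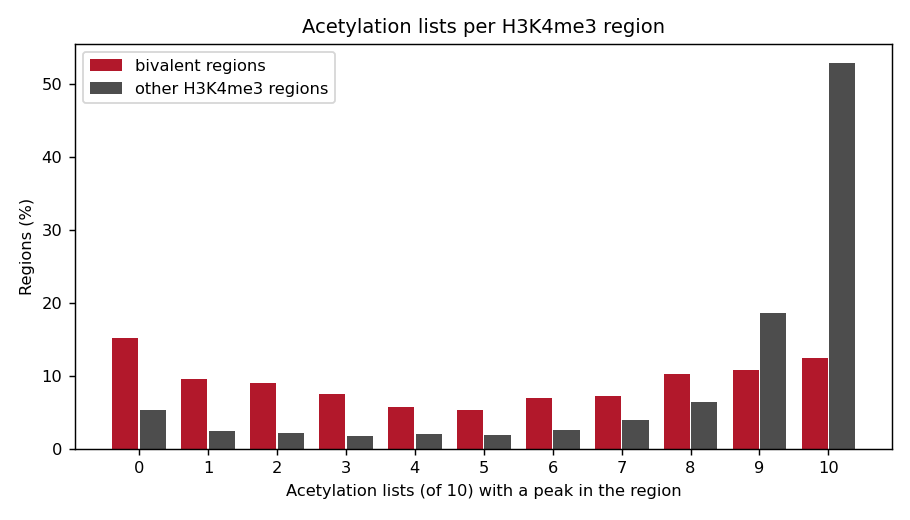
Share of regions (%) by the number of the 10 acetylation lists with a peak in the region, for bivalent (red) and other (grey) H3K4me3 regions. The other regions concentrate at 10 lists (52.9%), while bivalent regions have 15.2% at 0 lists and 12.5% at 10.

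BRD2 was rare at bivalent regions. It was called at 157 of them in replicate 1 (9.45%) against 54.1% of others, with 50.6% of all regions called. In replicate 2 it was called at 331 (19.9%) against 69.6%, with 65.8% of all. The difference was -47.2 ± 3.57 points (SD, n = 2), and it was negative in all 8 values by width quartile, in all 8 by H3K4me3 strength quartile and on 23 of 23 chromosomes. It was -11.8 points when BRD2 had to cover at least 50% of the region, and -30.7 at a −log10 q of at least 5 in all lists. With only BRD2 peaks of a −log10 q of at least 5, BRD2 was left at 26 bivalent regions in replicate 1 (1.57%), compared with 20.8% of others and 19.3% of all. The strict count in replicate 2 was 106 (6.38%), compared with 47.8% of others and 44.6% of all. Both BRD2 lists had a peak at 124 bivalent regions (7.47%) and at 52.4% of others, with 48.9% of all.

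BRD2 shares differed with the presence and strength of H3K27ac. At the 1020 bivalent regions with H3K27ac in neither list, BRD2 was called at 15 in replicate 1 (1.47%) and 34 in replicate 2 (3.33%). Other regions without H3K27ac had 1.71% and 3.71%, and all such regions 1.64% and 3.60%. At the 373 bivalent regions with H3K27ac in both lists, BRD2 was called at 34.0% and 62.7%, against 65.5% and 82.9% of others and 64.7% and 82.4% of all. When those other regions were weighted to the H3K27ac strength of the bivalent ones, they had 32.2% in replicate 1 and 56.3% in replicate 2. These values carry no test. At bivalent regions with H4K12ac in both lists and H3K27ac in neither, BRD2 was called at 10 of 414 (2.42%) in the first library and 23 (5.56%) in the second, against 3.12% and 12.1% of the others of that kind and 2.78% and 8.93% of all. At the 208 with a peak in all 10 acetylation lists it was called at 48.1% and 77.4%, against 81.1% and 94.7% of such others and 80.5% and 94.4% of all. That last comparison was not weighted to H3K27ac strength.

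H3K4me1, found at enhancers and at the borders of promoters, differed little between bivalent and other regions when any overlap with any deposited peak counted, but with strong peaks replicate 1 was lower at bivalent regions. It was called at 84.6% against 83.9% in replicate 1 (83.9% of all) and at 95.3% against 93.8% in replicate 2 (93.9% of all). The difference of 1.11 ± 0.548 points (SD, n = 2) changed sign under other settings, for example to -1.57 with a −log10 q of at least 5 in all lists, and was positive on 14 of 23 chromosomes. With only H3K4me1 peaks of at least that strength and the bivalent regions kept, replicate 1 had 49.8% against 64.2% (63.1% of all), a difference of -14.4 points. Replicate 2 then had 90.7% against 90.8% (90.8% of all).

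The position of H3K4me1 within the region was different. It lay over the midpoint of 25.9% of bivalent against 17.1% of other regions in replicate 1 (17.8% of all) and of 61.8% against 32.2% in replicate 2 (34.5% of all). Its peaks covered 42.3% and 76.7% of the bases of bivalent regions, against 34.4% and 52.8% in the others. The midpoint share was higher at bivalent regions in 7 of 8 values by width quartile and 7 of 8 by strength quartile. The exceptions were the narrowest quartile (39.8% against 46.5%) and the weakest quartile (41.8% against 46.1%), both in replicate 1. H3K27ac, by contrast, lay over the midpoint of 17.7% and 20.4% of bivalent regions, against 78.3% and 82.1% of others and 73.6% and 77.2% of all. By rising H3K27me3 cover the H3K4me1 midpoint share was 15.3%, 19.2%, 35.7% and 49.2% in replicate 1 and 49.5%, 53.8%, 76.0% and 84.1% in replicate 2.

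Averaged around the midpoint, H3K4me1 called in both lists formed 2 shoulders with a dip between them in both kinds of region. At bivalent regions the shoulders stood about 500 bp from the midpoint, where 39.9% were covered against 29.8% of others. At 1000 bp the order was the reverse, 26.2% against 42.4%, and the dip at the midpoint reached 25.4% against 16.8%. H3K27me3 itself covered 41.1% of bivalent regions at the midpoint, 28.0% at 1000 bp, 11.6% at 2000 bp and 6.68% at 5000 bp from it. Bivalent regions were also the narrower ones, and the part of width in these profiles was not tested.

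**Figure D5:**
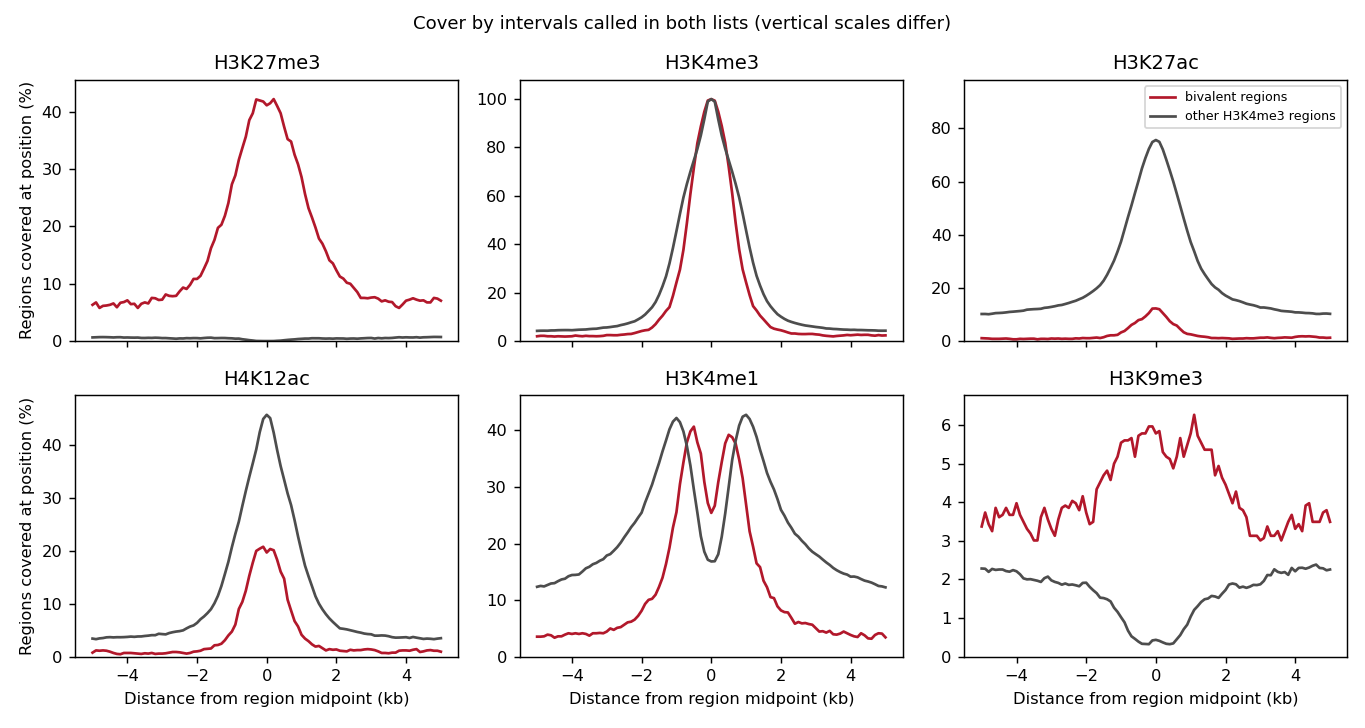
Share of regions (%) covered at each distance (kb) from the region midpoint by intervals called in both lists of 6 marks, for bivalent (red) and other (grey) H3K4me3 regions; the vertical scales differ between panels. H3K4me1 shoulders lie nearer to the midpoint at bivalent regions (39.9% covered at 500 bp), and H3K9me3 dips at the midpoint of other regions (0.438%) but not of bivalent ones (5.78%).

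H3K36me3, laid down along transcribed gene bodies by SETD2, was close to absent. It met 10 bivalent regions in replicate 1 (0.602%) against 18.4% of others, with 17.0% of all. In replicate 2 it met 9 (0.542%) against 17.8%, with 16.4% of all. The difference was -17.5 ± 0.379 points (SD, n = 2) and negative in each quartile of width and strength. Counting only regions covered at least 50% by H3K36me3, the difference was -2.79 points, and with width and strength weighting it was -9.68. H3K36me3 covered 0.439% and 0.461% of the bases of bivalent regions against 6.90% and 6.82% in the others. In the 5 kb on each side, H3K36me3 covered 0.562% of the bases around bivalent regions and 14.9% around the others.

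H3K9me3, the mark of heterochromatin laid down by SUV39H and SETDB1 enzymes, was more frequent at bivalent regions. It was called at 15.0% against 2.12% in replicate 1 (3.12% of all) and at 15.8% against 2.64% in replicate 2 (3.67% of all), a difference of 13.0 ± 0.228 points (SD, n = 2). The difference was positive in all 8 values by width, in all 8 by strength and on 23 of 23 chromosomes. Its size moved with the setting, to 7.30 points when H3K9me3 had to cover at least 50% of a region and 25.5 when H3K27me3 had to. Strict H3K9me3 peaks (−log10 q of at least 5) were found at 6.56% against 1.05% (1.48% of all) and 9.69% against 1.60% (2.23% of all). By rising H3K27me3 cover the shares were 10.6%, 8.14%, 18.5% and 44.4% in replicate 1 and 9.26%, 9.06%, 18.8% and 48.7% in replicate 2.

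Both H3K9me3 lists had a peak at 191 bivalent regions (11.5%) against 325 others (1.66%), with 2.43% of all. These 191 had a median width of 948 bp and a median H3K27me3 cover of 73.3%, against 1436 bp and 31.2% in the 1340 bivalent regions with H3K9me3 in neither list. Their median H3K4me3 fold enrichment was 16.0 and 15.9, against 47.0 and 49.1. H3K4me1 was called at 52.9% and 77.0% of them, against 89.9% and 98.4%. The 325 other regions with H3K9me3 in both lists also had low H3K4me1 shares, 60.9% and 75.1%. No acetylation list had a peak at 59 of the 191 (30.9%), against 12.3% of those 325 and 19.2% of all regions with H3K9me3 in both lists. All 10 had one at 26 (13.6%), against 52.9% and 38.4%. H3K9me3 and H3K27me3 shared bases within the region in all but 2 of the 187 bivalent regions with an H3K9me3 interval common to both lists. A shared base is likely wherever H3K27me3 covers most of a narrow region, and no expected number was computed.

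The bases of bivalent regions under H3K27me3 were compared with their remaining bases. For each target, bases were pooled over the bivalent regions with an interval common to both of its lists, not paired within regions. Of the H3K27me3 bases, 29.8% carried H3K27ac, against 39.3% of the remaining bases, over the 360 regions with an H3K27ac interval common to both lists. In 143 of these (39.7%) the H3K27ac and H3K27me3 intervals had no base in common. H4K12ac had the reverse order, at 41.6% against 29.9%, and H4K5acK8ac was at 49.3% against 49.4%. H3K4me1 was at 59.4% against 38.8% and H3K9me3 at 56.5% against 21.2%. Regions with much H3K27me3 cover weigh more among the H3K27me3 bases, so differences between regions enter these shares. Distance from the edge of the region also differs between the 2 kinds of base. The part of either was not tested.

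The flanks of bivalent regions held more H3K27me3 and less of the active marks than those of other regions. The H3K27me3 values are partly set by the rule, since an interval that meets a region can reach beyond it, and 22.0% of bivalent regions had none within 5 kb. In the 5 kb on each side H3K27me3 covered 11.1% of the bases, against 0.565% around other regions, H3K27ac 0.910% against 12.8%, and H3K4me1 6.69% against 19.2%. Over 50 kb on each side the values were 6.37% against 1.11% for H3K27me3 and 3.80% against 16.0% for H3K36me3. Bivalent regions lay mostly alone: 126 (7.59%) had another within 5 kb and 270 (16.3%) within 50 kb.

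The 5 regions with the most shared bases showed how far acetylation can differ at wide H3K27me3 cover (coordinates in hg19, 1-based). The region chr2:73518500-73521360 was covered for 98.0% of its 2861 bp, with an H3K4me3 fold enrichment of 65.5 and 68.4 and an H3K27me3 fold enrichment of 5.75 and 6.05. It had peaks in all 10 acetylation lists, with an H3K27ac fold enrichment of 18.8 in replicate 1 and 2.35 in replicate 2, and no BRD2. The regions chr20:61807492-61811052 and chr3:61545836-61549313, covered for 76.9% and 75.3%, had peaks in 9 and 8 acetylation lists. The region chrX:124336658-124340200, covered for 73.1%, had a peak in only 1, H3K27ac of replicate 2. The region with the most shared bases, chr6:58776261-58779360, was wholly covered over 3100 bp but had an H3K4me3 fold enrichment of only 2.11 and 1.93. Its H3K27ac fold enrichment was also low, at 2.32 and 1.71, so its calls in all 10 acetylation lists say little about acetylation. This region was 1 of 4 bivalent regions (0.241%) with a peak in each of the 18 lists compared. The share was about the same in the others (50 regions, 0.255%) and in all (0.254%).

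The 5 regions with the highest H3K27me3 among those covered at least 50% were chr12:72665205-72666451, chr8:144241156-144242111, chrX:105065680-105066806, chr7:49812833-49815264 and chr7:8473018-8473781. None had H3K27ac or BRD2 in either list, and all had H3K4me1 in both. The first had an H3K27me3 fold enrichment of 11.6 and 12.2 and an H3K4me3 fold enrichment of 40.8 and 45.0. H4K12ac was called in both lists at 4 of the 5, and the region on chromosome X had no acetylation at all. H3K9me3 was called in both lists at 3 of them. These 5 were picked by a value of the rule and are examples only. For comparison, either list had H3K27ac at 38.6% of bivalent and 88.1% of other regions, and BRD2 at 21.9% and 71.3%. Both lists had H3K4me1 at 84.2% and 83.7%, H4K12ac at 57.5% and 78.1%, and H3K9me3 at 11.5% and 1.66%.

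The 3 widest bivalent regions had little H3K27me3. The region chr17:77809332-77819287 was 9956 bp wide and covered for 1.53%, with H3K27ac at a fold enrichment of 60.7 and 36.8 and BRD2 at 5.42 and 9.82. The regions chr8:25900902-25909871 and chr12:4377711-4386546 were covered for 2.55% and 6.88%. They had peaks in 9 and 10 acetylation lists. BRD2 was called in both lists at 7 of the 189 regions covered at least 90% (3.70%), against 48.9% of all H3K4me3 regions. The widest after the region on chromosome 6 were chr11:69631889-69633933, with an H3K27ac fold enrichment of 3.68 and 6.93, and chr1:17019465-17020915, with H4K12ac in both lists and H3K27ac in neither.

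Of the bivalent regions, 69 shared 1 to 50 bp with H3K27me3, the least being 1 bp at chr12:77572778-77573381 and 2 bp at chr1:31158109-31158369 and chr8:49711924-49712716. Another 28 regions lay within 50 bp of an H3K27me3 interval without touching it, the nearest being chr1:236304683-236306859, chr6:55039009-55040340 and chr11:43568970-43569697. H3K27ac was called at 29.0% and 33.3% of the 69, and at 28.6% and 35.7% of the 28. H4 acetylation shares were higher in the 69, with H4K5ac close in replicate 1. H4K12ac was at 65.2% in both libraries of the 69 against 50.0% and 46.4% of the 28. H4K8ac was at 53.6% and 34.8% against 35.7% and 17.9%, and H4K5acK8ac at 47.8% and 65.2% against 39.3% and 50.0%. H4K5ac was at 59.4% and 53.6% against 53.6% and 39.3%. The 28 regions are few, and these differences were not tested. Among the 481 other regions within 1000 bp H3K27ac was at 34.7% and 44.1%, and beyond that distance at 84.0% and 87.9%. At these 481, H3K9me3 was at 11.9% and 12.9%, H4K5acK8ac at 49.9% and 63.0%, and BRD2 at 21.0% and 30.6%. These shares lay nearer to those of bivalent regions than to those of all other regions. They were thus not particular to bivalent regions. H4K12ac, at 55.9% and 55.3%, and H3K4me1, at 69.6% and 84.8%, lay below both groups.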

How the data were processed

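Peak lists of 22 libraries (11 targets, 2 replicates) from NCI-H23 cells were used as deposited; groups follow the sample titles, and for H3K9me3 replicate 2 the title was followed over a description with another replicate number. Per the submitters' processing notes, the build was hg19 and the tools included BWA and MACS2; versions, settings and filters are not given in the sources used here. The deposited lists give each peak a fold enrichment (ratio to the caller's background), −log10 p and −log10 q, a score equal to 10 times −log10 p within 1, and start, end and summit positions. The start, end and summit columns hold other deposited values, in bp. These values are the authors' own. Fold enrichment and p served within the list they came from, except in ranking the named regions with the highest H3K27me3. That ranking took the lower fold enrichment of both replicates. The same q limits were applied to all lists. The lists hold no read counts, so depth is unknown; Wilson intervals (95%) cover counting error only and treat neighbouring regions as independent.

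H3K4me3 regions, bivalent regions and target calls (at least 1 bp shared) were computed by code tested on simulated data, in Python 3.11.15 with pandas 2.3.3, scipy 1.17.1 and numpy 2.4.6; matplotlib 3.10.9 drew the figures. Peaks are not replicates: differences are given per library and as mean ± SD over 2 libraries, and the only test is the exact sign-flip test over 5 acetylation marks. The bivalent regions, the comparisons and the regions named were chosen with earlier results of these data known. Regions named were the 5 with the most shared bases, the 5 with the highest H3K27me3 among those covered at least 50%, the 3 widest, the 3 with the smallest shared length, the 3 nearest outside, and the 3 widest covered at least 90% with BRD2 in both lists. The cover classes, midpoint values, strict target peaks and matching on H3K27ac strength were chosen after the data were seen. The gene table at hand is of GRCh38.p14, and peaks lay beyond its last gene on 15 of 24 chromosomes, so its coordinates and the planned gene lists were not used here. Alternatives covered the overlap rule, a 200 bp window at the midpoint, width weighting, q thresholds, a minimum cover, each replicate left out and a replicate block.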

Additional observations from a re-analysis of the deposited data

Results flagged for a closer look

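H3K4me1 and H3K9me3 went against the acetylation marks. Every acetylation library had a lower share of bivalent than of other H3K4me3 regions with a peak, while both H3K4me1 libraries had a higher one, by 1.11 percentage points on average, and both H3K9me3 libraries a higher one, by 13.0 points. The difference between these targets and the acetylation marks was not tested. The H3K4me1 value changes sign with the processing, and with strong H3K4me1 peaks it was -14.4 points in replicate 1. The H3K9me3 value stayed positive under the settings run, at 3.69 points without regions with H3K9me3 in both lists, which removes most of its calls, and up to 25.5 points when H3K27me3 had to cover at least 50% of a region.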

How the results depend on the processing

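The mean acetylation difference stayed negative under every alternative run, from -44.9 (−log10 q of at least 5 in all lists) to -26.6 points (weighted to H3K4me3 strength), with -32.6 to -27.6 when 1 replicate was left out. The H3K4me1 difference reversed to -1.57 under that same q limit, -2.54 when H3K27me3 had to cover at least 50% of a region, and -0.979 without replicate 2, with 0.173 without replicate 1. It was 19.7 when the target had to cover at least 50% of the region, 27.4 in the window of 200 bp on each side of the midpoint, 2.77 with width weighting, 5.49 with strength weighting, 4.08 with both and 4.01 without regions with H3K9me3 in both lists.

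In the same settings the H3K36me3 difference was -2.79 (target cover), -3.77 (window), -10.8 (width), -11.5 (strength), -9.68 (both) and -13.4 (−log10 q), and -19.0 to -17.9 with 1 replicate left out. The BRD2 difference was -11.8, -38.5, -42.3, -36.9, -39.7 and -30.7 in that order, -52.8 with H3K27me3 on at least 50% of a region, and -43.5 to -43.1 with 1 replicate left out. The width ratio was 0.715 at a −log10 q of at least 5, 0.603 with H3K27me3 on at least 50%, 0.791 without H3K9me3 regions and 0.762 to 0.787 with 1 replicate left out. The bivalent share was 2.51% at a −log10 q of at least 5, 2.84% with H3K27me3 on at least 50%, and 9.27% to 12.8% with 1 replicate left out, the higher value without replicate 1. The H3K4me3-strength weightings and the setting without H3K9me3 were added after seeing the data.

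With a replicate block (each replicate number analysed on its own, then averaged) the values were -0.403 for H3K4me1, a reversal, -18.4 for H3K36me3, -43.3 for BRD2, -30.1 for acetylation and 11.0% for the bivalent share. Deviations of same-numbered lists correlated between -0.0951 and 0.108 over 36 pairs. The labels do not say whether same-numbered libraries belong together, and these values cannot settle it. The causes of these shifts were not tested. The unknown depth limits all shares, since a deeper library yields more peaks.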

Other observations

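The share of H3K4me3 regions that were bivalent varied between chromosomes; the highest and lowest are given, with no test. Bivalent regions made up 12.8% of the H3K4me3 regions of chromosome 18 (46 of 359) and 11.9% of those of chromosome 2 (172 of 1451), against 3.07% on chromosome 19 (47 of 1531), 3.66% on chromosome 22 and 4.00% on chromosome 16.

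Of the bivalent regions, 270 (16.3%) had another within 50 kb. The longest runs with such gaps were 2 runs of 5, at chr6:150243617-150359837 and chr19:1747931-1776801, where H3K27me3 covered 8.03% and 29.4% of the bases. At chr14:42074189-42079591, 4 bivalent regions lay within 5.40 kb, H3K27me3 covered 73.5% of the bases, and all 4 had H3K4me1 but none H3K27ac in both lists. H3K9me3 was in both lists at 2 of them. Both lists had H3K4me1 at 84.2% of all bivalent and 83.7% of other regions, H3K27ac at 22.5% and 81.5%, and H3K9me3 at 11.5% and 1.66%. The 4 regions are thus an example only.

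Regions with H3K27me3 in only 1 of its lists stood between bivalent and other regions. H3K27ac was called at 47.8% and 56.8% of these 1174 regions in replicates 1 and 2, and at 85.2% and 88.9% of the 18356 regions with H3K27me3 in neither list. H3K9me3 was called at 7.07% and 8.52% of the former and 1.78% and 2.24% of the latter.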
